A study of Bos taurus with 6 samples.

Results

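The miR-183-96-182 cluster is a group of 3 miRNAs, bta-miR-183, bta-miR-96 and bta-miR-182, that were picked by name from the 512 miRNAs listed for each library of extracellular vesicles (EVs). All 3 were listed. No other arm of these hairpins and no further copy of the members was listed. EVs came from the spent medium of bovine granulosa cells, the steroid-producing cells that line the ovarian follicle and surround the oocyte. The cells were aspirated from small antral follicles of slaughterhouse ovaries, grown at 37 °C, and then either left at 37 °C for 24 h (control-EVs, 3 libraries) or moved to 42 °C for 24 h (heat-stressed, HS-EVs, 3 libraries). Both groups shared the same kind of primary culture, the same medium with exosome-depleted fetal bovine serum, and the same precipitation of EVs with ExoQuick-TC. As the serum was bovine too, miRNAs left over from serum and miRNAs released by the cells cannot be told apart in either group. Neither the breed nor the age of the animals was given.

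The 3 miRNAs are cut from a shared primary transcript, first by Drosha in the nucleus and then by Dicer in the cytoplasm. They are best known from sensory organs, where they are abundant in the retina and in hair cells of the inner ear. In bovine granulosa cells the cluster is known to promote proliferation by acting on FOXO1, a transcription factor that restrains the cell cycle and survival and that follicle-stimulating hormone switches off. miR-183, miR-96 and miR-182 have similar but not identical seeds, the stretch near the 5′ end that pairs with target transcripts. By RefSeq's gene models for ARS-UCD2.0, which is not the assembly the reads were mapped to, MIR182, MIR96 and MIR183 are next to each other in this order. The block has NRF1, the gene of a transcription factor of mitochondrial and housekeeping genes, on the MIR182 side and LOC132345191 on the MIR183 side. Each mature miRNA had 1 gene there, so that the reads of a member have a single annotated source. The mature sequences were not analysed here.

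Reads were recovered from the deposited normalized counts, which are whole multiples of the worth of 1 read. They summed to between 274434 and 2360980 reads per library. Each sum exceeds the reads on annotated miRNAs that the study lists for that library, and the sources used here do not say why. A recovered read is thus the counting step of the deposited values and may not be 1 captured molecule, in which case the counting intervals are too narrow. Most of them were on bta-miR-1246, so that the precision for any other miRNA follows from the reads left over, which numbered 76623, 235634 and 73569 in control-EVs replicates 1, 2 and 3, and 34141, 123448 and 86705 in HS-EVs replicates 1, 2 and 3. HS-EVs replicate 1 stood apart, with 98.6% of its reads on bta-miR-1246 against 59.9% to 84.6% in the other libraries. The log2 differences of bta-miR-183 and bta-miR-182 and the correlations with other miRNAs are therefore given with and without it. The gap to the listed reads on annotated miRNAs was also widest in this library. The miRNAs were found to be present at very low levels in EVs. The 6 libraries together held 109 reads on the cluster, 53 of them on bta-miR-182, 47 on bta-miR-183 and 9 on bta-miR-96.

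By reads summed over all libraries bta-miR-182 was the most abundant member, although bta-miR-183 had more in control-EVs replicate 2. Across replicates 1, 2 and 3, bta-miR-182 was read 5, 12 and 17 times in control-EVs and 0, 8 and 11 times in HS-EVs. The normalized counts, scaled by the authors to make libraries comparable, were 9.18, 8.37 and 33.6 in control-EVs and 0, 8.80 and 17.9 in HS-EVs. Control-EVs replicate 3 was thus the highest library and HS-EVs replicate 1 the lowest, and the other 4 lay between them with libraries of both groups intermixed.

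bta-miR-183 was read 3, 18 and 12 times in control-EVs (replicates 1, 2 and 3) and 0, 6 and 8 times in HS-EVs. Its normalized counts were 5.51, 12.6 and 23.7 in control-EVs and 0, 6.60 and 13.0 in HS-EVs. The same libraries were highest and lowest as for bta-miR-182, and HS-EVs replicates 2 and 3 lay within the range of control-EVs.

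bta-miR-96, with a seed close to that of bta-miR-182, was read 1, 0 and 3 times in control-EVs (replicates 1, 2 and 3) and 1, 2 and 2 times in HS-EVs. The normalized counts were 1.84, 0 and 5.93 in control-EVs and 4.11, 2.2 and 3.26 in HS-EVs. No library had more than 3 reads, which a count of 0 also allows. HS-EVs replicate 1, without a read of its 2 neighbours, held 1 read of bta-miR-96, and control-EVs replicate 2, where most reads were left over, held none.

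**Figure D1:**
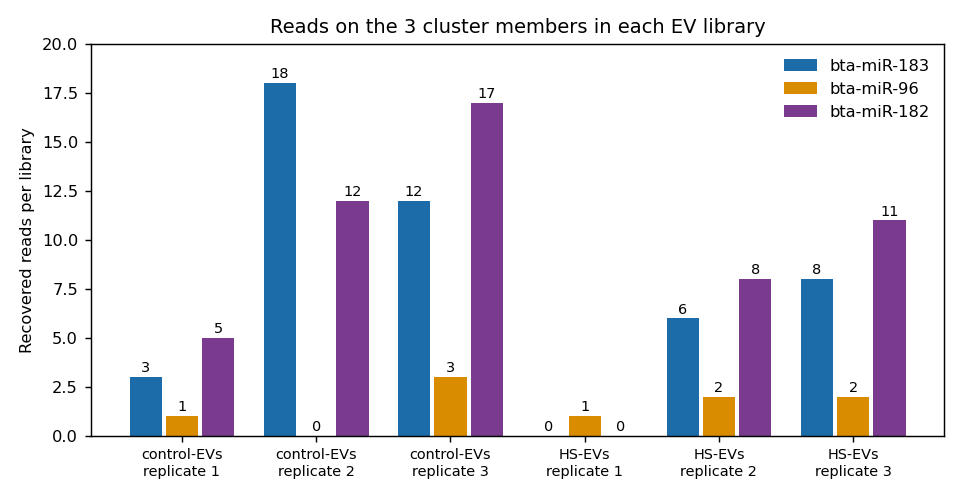
Recovered reads (y axis, reads per library) on each of the 3 members in each of the 6 libraries (x axis), with one bar per member and its reads written above it. Bars of bta-miR-183 and bta-miR-182 reach at most 18 and 17 reads, bta-miR-96 never exceeds 3, and HS-EVs replicate 1 holds 1 read of the cluster in all.

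Among the 512 miRNAs ordered by mean normalized count over the 6 libraries, bta-miR-182 ranked 183 with a mean of 13.0, bta-miR-183 ranked 194 with 10.2, and bta-miR-96 ranked 267 with 2.89. A read covers a whole mature miRNA, so that these levels need no correction for length. Whether library preparation captured each miRNA equally well was not tested, so that ranks and ratios compare reads and not molecules. Next to bta-miR-182 in this order were bta-miR-425-3p above and bta-miR-6119-3p below it, with means of 13.0 and 12.3. bta-miR-183 lay between bta-miR-2285k (10.8) and bta-miR-381 (10.1), and bta-miR-96 lay between bta-miR-6528 (2.99) and bta-miR-17-3p (2.88). These neighbours had 4 to 28 and 3 to 19, 3 to 15 and 1 to 16, and 0 to 9 and 1 to 4 reads per library, so that a difference in rank from a member was well within the spread between libraries.

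**Figure D2:**
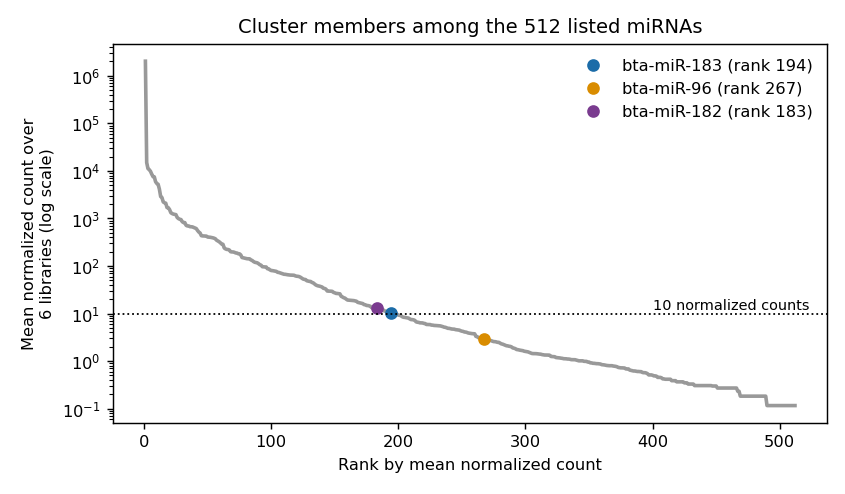
Mean normalized count over the 6 libraries (y axis, log scale) of the 512 listed miRNAs against their rank (x axis), with the 3 members as coloured points and a dotted line at 10 normalized counts. bta-miR-182 (rank 183) and bta-miR-183 (rank 194) lie just above the line and bta-miR-96 (rank 267) lies below it.

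The study counted a miRNA as detected in a group at 10 or more normalized counts in at least 2 of the 3 libraries. By this rule bta-miR-183 was detected in control-EVs, where 2 libraries passed, and not in HS-EVs, where 1 passed. bta-miR-182 passed in 1 library of each group, and bta-miR-96 in none. Of all miRNAs, 37.9% were detected in control-EVs and 36.7% in HS-EVs, and 3.12% were detected in control-EVs and not in HS-EVs. In HS-EVs, the libraries short of 10 normalized counts held 0 and 6 reads of bta-miR-183. As 10 normalized counts took between 3 reads (HS-EVs replicate 1) and 15 reads (control-EVs replicate 2), the rule did not ask for the same number of reads in every library.

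The comparison of HS-EVs with control-EVs asked whether heat stress changed the level of each miRNA in the EV RNA. No member passed the test. Libraries were made from a set amount of EV RNA, so that the values are relative to the other RNA of a library and measure neither the number of EVs nor the miRNA per EV. bta-miR-183 and bta-miR-182 had lower mean normalized counts in HS-EVs, while bta-miR-96 was near the same low level in both groups.

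The control-EVs averaged 13.9 ± 9.18 normalized counts of bta-miR-183 (SD, n = 3), against 6.55 ± 6.52 for the HS-EVs (SD, n = 3). On the log2(normalized count + 1) scale, where the size of a difference at few reads depends on the 1 added, the difference was -1.45 (standard error 0.91, 95% interval -3.49 to 0.59, adjusted p = 0.873 from limma over all 512 miRNAs). On recovered reads it was smaller, -0.83 in edgeR's quasi-likelihood test and -1.01 in DESeq2. HS-EVs were lower in 3 of the 3 same-numbered pairs, and the groups overlapped.

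The control-EVs averaged 17.0 ± 14.3 normalized counts of bta-miR-182 (SD, n = 3), against 8.91 ± 8.97 for the HS-EVs (SD, n = 3). The log2 difference was -1.38 (standard error 1.00, 95% interval -3.61 to 0.84, adjusted p = 0.873 from limma). On recovered reads it was -0.63 in edgeR's quasi-likelihood test and -0.86 in DESeq2. HS-EVs were lower in 2 of the 3 same-numbered pairs and marginally higher in the pair numbered 2, and the groups overlapped.

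For bta-miR-96, 2.59 ± 3.03 normalized counts in control-EVs (SD, n = 3) compared with 3.19 ± 0.96 in HS-EVs (SD, n = 3). The log2 difference was 0.61 (standard error 0.67, 95% interval -0.89 to 2.11, adjusted p = 0.873 from limma), and its direction turned to -0.080 when reads were scaled by all reads of a library, where the median of the 512 miRNAs moved to -0.75. A p-value that misses the threshold does not show that both groups had equal levels, and each of the 3 intervals includes differences of more than 2-fold in at least one direction.

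As background for these 3 results, 0.0% of the 512 miRNAs reached the threshold in limma's fit. The threshold is that of the study for EVs, an adjusted p-value up to 0.3 and a log2 fold change of at least 1 in either direction. The study applied it to a different test, in edgeR, and reported miRNAs enriched in HS-EVs, none of them a member. At this threshold edgeR's quasi-likelihood test on recovered reads called 3 miRNAs here, none of them a member. At an unadjusted p-value of 0.05 or less the count was 25 (4.88%), with 10 in DESeq2 and 26 in edgeR's quasi-likelihood test on recovered reads, and 0 of the 3 members were among them in any of these tests. Groups that did not overlap were found in 6.45% of all miRNAs and in 0 of the 3 members. A log2 difference of -1 or less was found in 5.47% of all miRNAs, and bta-miR-183 and bta-miR-182 are 2 of these.

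The size of both negative differences rested on HS-EVs replicate 1. Without this library the log2 difference was -0.33 for bta-miR-183 (95% interval -1.97 to 1.31) and -0.13 for bta-miR-182 (95% interval -1.88 to 1.63) in limma's fit. Without control-EVs replicate 3, the highest library, they were -0.99 and -0.78.

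The depth of HS-EVs replicate 1 limits what its 0 reads can show. A count of 0 allows up to 3 reads, which in this library equal 12.3 normalized counts, above both members in control-EVs replicate 1 (5.51 for bta-miR-183 and 9.18 for bta-miR-182) and bta-miR-182 in control-EVs replicate 2 (8.37), but below bta-miR-183 in control-EVs replicate 2 (12.6) and both members in control-EVs replicate 3 (23.7 and 33.6). At the share that the other 5 libraries gave on average, its 34141 reads left over would have held 2.69 reads of bta-miR-183, 3.04 of bta-miR-182 and 6.19 of the cluster. Of all 512 miRNAs, 42.6% had no read in it. For either member, the 0 reads of HS-EVs replicate 1 thus do not tell absence apart from a level as high as that in control-EVs replicate 1.

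Levels were also expressed per 1000000 reads left over once bta-miR-1246 was set aside (RPM), a scale that does not use the authors' factors. bta-miR-182 had 65.3, 50.9 and 231 RPM in control-EVs and 0, 64.8 and 127 in HS-EVs (replicates 1, 2 and 3). The 3 reads that a count of 0 allows equal 87.9 RPM in HS-EVs replicate 1, below the Wilson interval of control-EVs replicate 3, 144 to 370 (95%, counting error only), and within those of the other 2 control-EVs libraries.

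bta-miR-183 had 39.2, 76.4 and 163 RPM in control-EVs and 0, 48.6 and 92.3 in HS-EVs. The same 87.9 RPM in HS-EVs replicate 1 lay little below the interval of control-EVs replicate 3, 93.3 to 285, and within those of the other 2 control-EVs libraries. bta-miR-96 had 13.1, 0 and 40.8 RPM in control-EVs and 29.3, 16.2 and 23.1 in HS-EVs. The 3 members together had 117, 127 and 435 RPM in control-EVs, with control-EVs replicate 3 above the other libraries of its group by more than counting error (interval 308 to 614 against an upper bound of 223 or less). They had 29.3, 130 and 242 RPM in HS-EVs. In both groups replicate 3 held the largest share of cluster reads, and control-EVs replicate 3 differed from the other 2 control-EVs libraries by more than the means of the 2 groups did from each other (227 ± 181 and 134 ± 107 RPM, SD, n = 3 each).

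**Figure D3:**
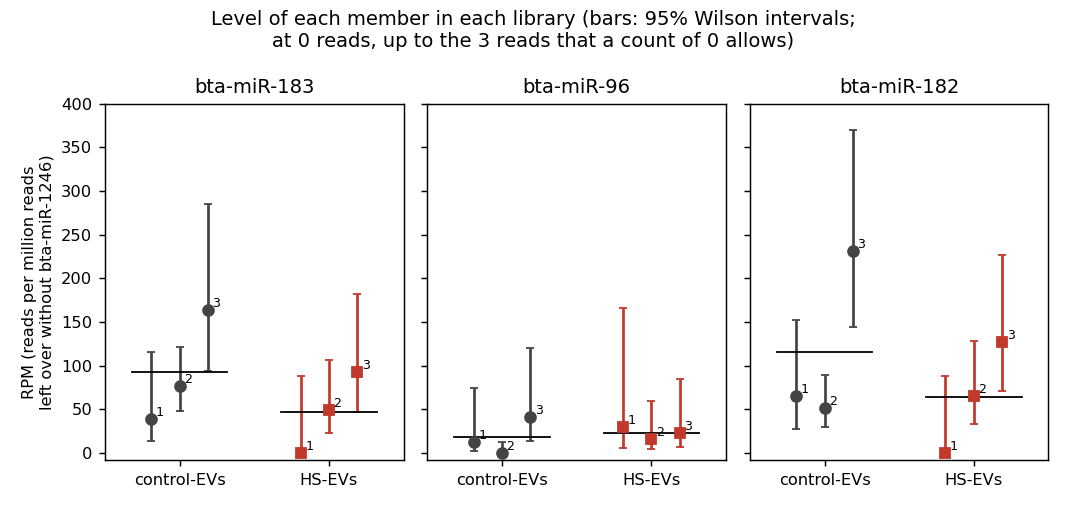
RPM (y axis, reads per 1000000 reads left over without bta-miR-1246) for each member in control-EVs (circles) and HS-EVs (squares), one point per library with its replicate number, its 95% Wilson interval for counting error (at 0 reads, a bar up to the 3 reads that a count of 0 allows), and the group mean as a horizontal line. The groups overlap in all 3 panels, and control-EVs replicate 3 is the highest point for bta-miR-183 (163) and bta-miR-182 (231).

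The stoichiometry of the members was read as the ratio of their reads within a library, which does not depend on how a library was scaled. bta-miR-182 exceeded bta-miR-183 in control-EVs replicates 1 and 3 (ratios of 1.67 and 1.42) and in HS-EVs replicates 2 and 3 (1.33 and 1.38). The order was the opposite in control-EVs replicate 2, at a ratio of 0.667, and HS-EVs replicate 1 gave no ratio. The exact interval of each of the 5 ratios included 1, with 0.293 to 1.46 in control-EVs replicate 2 and 0.638 to 3.25 in control-EVs replicate 3, the libraries with the most reads of the pair. Over these 5 libraries the mean log2 ratio was 0.31 ± 0.51 (SD, n = 5), less than its spread over libraries (two-sided exact sign-flip test, p = 0.312, where 0.0625 is the smallest that 5 libraries allow). The test could not pass 0.05 and does not show that both were at the same level.

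The miR-182 to miR-183 ratio overlapped between the groups. Its mean log2 value was 0.22 ± 0.71 among control-EVs (SD, n = 3) and 0.44 ± 0.03 among HS-EVs (SD, n = 2), a difference of 0.22 (exact permutation test, two-sided, p = 1.0 over 10 divisions, the smallest possible being 0.1). Without control-EVs replicate 2 the difference was -0.18, its direction reversed.

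bta-miR-96 was the member with the fewest reads. It had fewer reads than bta-miR-183 and bta-miR-182 in 5 of the 6 libraries, the exception being HS-EVs replicate 1 with its single read. In the 4 libraries with reads of every member, bta-miR-96 had 0.333 and 0.250 times the reads of bta-miR-183 in control-EVs replicates 1 and 3, and 0.333 and 0.250 times in HS-EVs replicates 2 and 3. Against bta-miR-182 the ratios were 0.200 and 0.176 in control-EVs and 0.250 and 0.182 in HS-EVs. With 0.5 read added to each member so that all 6 libraries could enter, the mean log2 ratio of bta-miR-96 to bta-miR-182 was -1.87 ± 2.0 (SD, n = 6; two-sided exact sign-flip test, p = 0.0625, and 0.188 after adjustment over the 3 ratios, where 0.0312 is the smallest unadjusted p possible). That of bta-miR-96 to bta-miR-183 was -1.64 ± 2.17 (SD, n = 6; two-sided exact sign-flip test, p = 0.125, and 0.188 adjusted). By mean level the order was bta-miR-182, bta-miR-183 and bta-miR-96. Neither step passed p of 0.05, which the first could not have done.

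Between HS-EVs and control-EVs, the log2 ratio of bta-miR-96 to bta-miR-183 differed by 0 and that of bta-miR-96 to bta-miR-182 by 0.18 over the 4 libraries with both reads (exact permutation tests, two-sided, p = 1.0 and 0.667, where 0.333 is the smallest that 2 against 2 libraries allow). With 0.5 read added and all 6 libraries, the differences were 2.24 and 2.15 (exact permutation tests, two-sided, p = 0.4 and 0.2; 0.6 for both after adjustment over the 3 ratios, where 0.1 is the smallest unadjusted p that 3 against 3 libraries allow). These larger values came from control-EVs replicate 2 with 0 reads of bta-miR-96 and from HS-EVs replicate 1 with 1 read of the cluster.

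As shares of the cluster's reads, bta-miR-182 took 55.6%, 40.0% and 53.1% in control-EVs replicates 1, 2 and 3, and 50.0% and 52.4% in HS-EVs replicates 2 and 3. bta-miR-183 took 33.3%, 60.0% and 37.5% in control-EVs, and 37.5% and 38.1% in HS-EVs replicates 2 and 3. bta-miR-96 took 11.1%, 0% and 9.38% in control-EVs, and 12.5% and 9.52% in HS-EVs replicates 2 and 3. The 0% of control-EVs replicate 2 rests on 30 reads of the cluster and allows a share of up to 10.0%, which is above the share in 2 of the 4 other libraries named here. Leaving aside control-EVs replicate 2, the order of shares was the same in each of these libraries of both groups.

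The spread of these ratios was compared with the counting error. The SD of the log2 ratio of bta-miR-183 to bta-miR-182 was 0.51, against a counting error of 0.74 expected from the reads of a library, over the 5 libraries with reads of both. The SDs of the ratios of bta-miR-96 to bta-miR-183 and to bta-miR-182 were 0.24 and 0.23, against counting errors of 1.26 and 1.21, in the 4 libraries with reads of both. Leaving out libraries with 0 reads narrows this spread, and with 0.5 read added and all 6 libraries the SDs were 2.17 and 2.0, against counting errors of 1.57 and 1.55 computed with the same 0.5 read, an approximation that is poor at 0 or 1 reads. Whether the ratios with bta-miR-96 vary more than counting gives was therefore not settled by these reads. In the clusters with more reads the spread exceeded counting error, apart from both ratios with miR-106b, which had 45 reads. It was 0.36 against 0.18 for miR-221 over miR-222, 0.26 against 0.07 for miR-93 over miR-25, and 0.55 against 0.07 for let-7e over miR-125a. It was 0.84 against 0.78 for miR-143 over miR-145 and 0.78 against 0.59 for miR-424-5p over miR-503-5p. Among the listed clusters, miR-200b, miR-200a and miR-429, of the epithelial miR-200 family, had as few reads (17, 25 and 6). The SD was 1.68 against a counting error of 1.30 for miR-200b over miR-200a. It lay below counting error for miR-200b over miR-429 (1.43 against 1.62) and miR-200a over miR-429 (1.16 against 1.58).

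**Figure D4:**
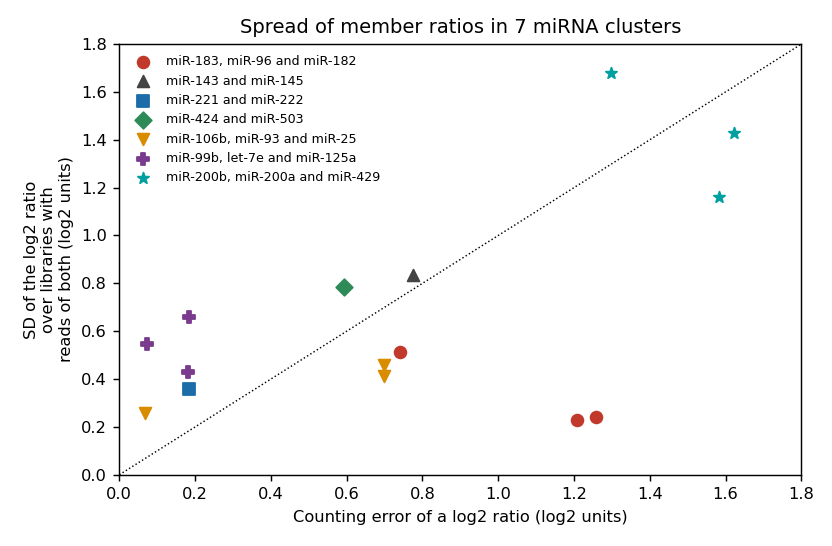
SD of the log2 ratio of 2 members over libraries (y axis, log2 units) against the counting error expected from their reads (x axis, log2 units) in 7 miRNA clusters, one point per ratio, with a dotted line where both are equal. Libraries with 0 reads of either member are left out. So limited, the 3 ratios of the miR-183-96-182 cluster lie under the line, with SDs of 0.23 to 0.51, but both ratios with bta-miR-96 have SDs of 2.17 and 2.0 over all 6 libraries with 0.5 read added, whereas ratios with the smallest counting errors, at the left, lie above it.

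Other miRNAs known to act on FOXO1 were examined beside the cluster. Of 7 in this list, 5 were listed (miR-27a-3p, miR-27b, miR-139, miR-223 and miR-1271), and 0 of the 5 reached the threshold or an unadjusted p-value of 0.05. The median log2 difference was -0.27, where the median of all 512 miRNAs was 0.01. bta-miR-27b was the most abundant of them, at 1186 ± 413 normalized counts for control-EVs (SD, n = 3) against 911 ± 67.9 for HS-EVs (SD, n = 3), far above the members of the cluster. bta-miR-1271, a miRNA with a seed like that of miR-96, had 6 reads in all 6 libraries together. Of bta-miR-96, bta-miR-182 and bta-miR-1271, bta-miR-182 had the most reads (53).

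Of 10 miRNAs known from granulosa cells, among them miR-21-5p, miR-31 and miR-378, all were listed and 0 reached the threshold or an unadjusted p-value of 0.05. Their median log2 difference was 0.24, with values between -0.26 and 0.56. bta-miR-21-5p, an abundant miRNA of granulosa cells that favours survival, averaged 10154 ± 4040 normalized counts for control-EVs (SD, n = 3) and 11099 ± 4160 for HS-EVs (SD, n = 3).

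Markers of other cell types were present. For red blood cells (miR-451, miR-486 and miR-144), the summed normalized counts ranged from 561 to 1283 in control-EVs and from 320 to 822 in HS-EVs. For white blood cells and platelets (4 of 4 listed) they ranged from 221 to 340 and from 269 to 362. For liver, bta-miR-122 ranged from 12232 to 25400 and from 7524 to 13633, for muscle (3 of 3) the sums were 522 to 969 and 227 to 1578, and for stroma (5 of 5) 1189 to 1669 and 1112 to 1335. For red blood cells, liver, muscle and stroma, the highest HS-EVs value was that of HS-EVs replicate 1 (822, 13633, 1578 and 1335). In HS-EVs replicates 2 and 3 each of these lay below its control-EVs range, with bta-miR-122 at 9840 and 7524. The share of all 512 miRNAs that would do so without HS-EVs replicate 1 was not computed. The 5 epithelial miRNAs of the miR-200 family summed to 11.9 to 14.7 and 8.15 to 17.6, and 3 of them were at 0 in HS-EVs replicate 1. Of all these markers, 0 reached the threshold, and bta-miR-429 of the epithelial list, with 6 reads in all, had an unadjusted p-value of 0.0284 (adjusted p = 0.870 from limma). The part of any of these cells in the levels of the cluster was not tested.

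To find miRNAs with a like pattern, the summed normalized count of the 3 members was compared with each of 130 miRNAs that had at least 10 reads in every library. The highest Pearson correlations over the 6 libraries were those of bta-miR-1306 (r = 0.89), bta-miR-19b (0.87), bta-miR-2285bf (0.86), bta-miR-146b (0.79) and bta-miR-21-5p (0.79). The median of the 130 was -0.08. All points share the same 6 libraries and their scaling factors, and the cluster's sum rests on 1 to 32 reads per library. Without HS-EVs replicate 1 the correlations were 0.89, 0.58, 0.64, 0.66 and 0.64 over 5 libraries. On reads scaled by the reads left over, 3 of these 5 miRNAs were again among the 5 highest. bta-miR-1306 had 51.4, 60.7 and 81.0 normalized counts in control-EVs and 49.3, 63.8 and 76.6 in HS-EVs (replicates 1, 2 and 3), and so was lowest in HS-EVs replicate 1 and highest in control-EVs replicate 3, as the cluster was.

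The differences of the 3 members were recomputed under other scalings, tests and subsets of libraries. bta-miR-183 and bta-miR-182 had negative log2 differences in all of them, between -2.23 and -0.33 and between -2.25 and -0.13, and 0 of these passed the threshold. bta-miR-96 lay between -0.11 and 1.29, with both signs.

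**Figure D5:**
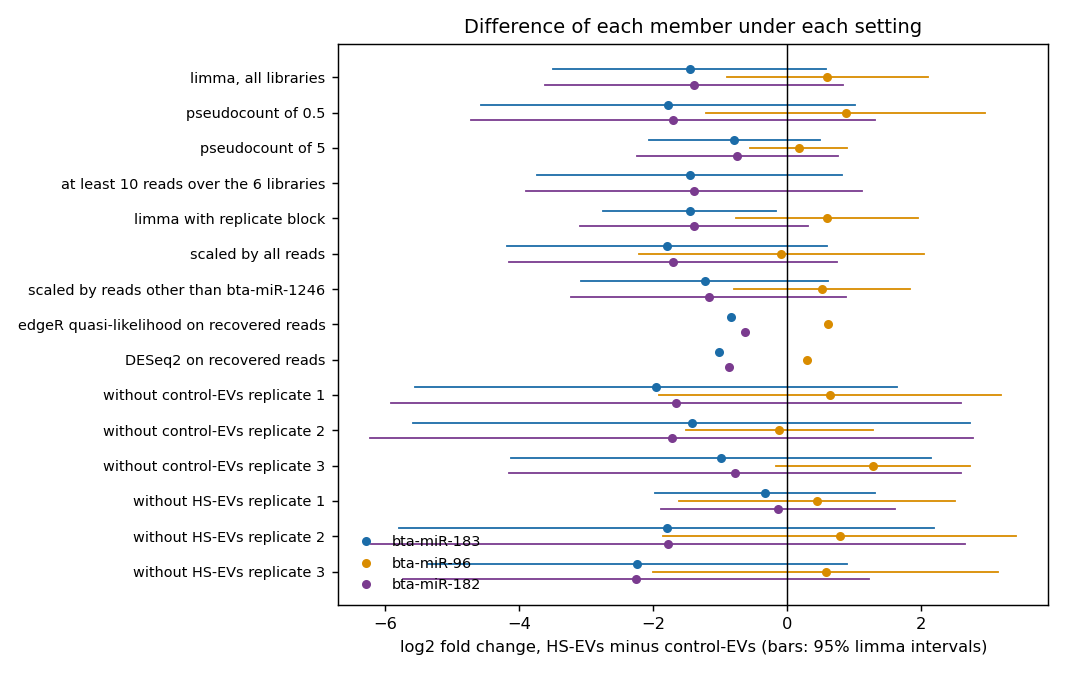
Log2 difference between HS-EVs and control-EVs (x axis) of each member under each setting (y axis), with 95% intervals where limma was used. Points of bta-miR-183 and bta-miR-182 lie left of 0 throughout, nearest to it without HS-EVs replicate 1 (-0.33 and -0.13), and points of bta-miR-96 lie on both sides.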

How the data were processed

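Small RNA libraries with unique molecular identifiers (UMIs) were made from 3 control-EVs and 3 HS-EVs samples, grouped by their titles and described by the submitters as biological replicates. The authors trimmed reads and collapsed those with the same UMI (Cutadapt 1.11), mapped them with Bowtie2 (2.2.2) to the bovine genome (UMD 3.1) and to miRBase, and deposited TMM-scaled counts, handled here as a non-negative signal. Dividing by the lowest nonzero value of a library left whole numbers for 100% of its values (tolerance 0.001), and that lowest value was taken as 1 read. If it stood for several reads, the reads given here would be too low by that factor. They sum to more than the study's own totals on annotated miRNAs, and may thus not be single molecules. Wilson and exact intervals (95%) and the floor of 3 reads cover counting error only.

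limma (3.58.1, R 4.3.3) was fitted to log2(normalized count + 1) of all 512 miRNAs without a filter or block, with Benjamini-Hochberg adjustment. As alternatives, the recovered reads were given to edgeR (4.0.16) and DESeq2 (1.42.0), and limma's and edgeR's fits were tested on simulated data. The quasi-likelihood test on recovered reads called 3 miRNAs, none of them a member. Ratios were compared by exact permutation over the libraries where both members had a read. The sign-flip tests of levels were added later. Counts of every pair of libraries differed beyond sampling noise (chi-square per degree of freedom 34.3 or more in 15 pairs).

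The members and lists were chosen with earlier results of these data known. Named miRNAs were the members, their neighbours in rank, the 5 with the most similar pattern, and list members past the threshold. The rule also asked for listed miRNAs with a member's seed, which was not applied for want of sequences, and bta-miR-1271 and bta-miR-429, bta-miR-27b and bta-miR-21-5p were named after their values were seen.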

Additional observations from a re-analysis of the deposited data

How the results depend on the processing

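The log2 differences of bta-miR-183 and bta-miR-182 kept their negative sign, and 0 of the 3 members passed the threshold, under every alternative run. That of bta-miR-96 reversed to -0.080 on reads scaled by all reads and, over the fits with 1 library left out, ranged from -0.11 (without control-EVs replicate 2) to 1.29, and bta-miR-96, with 9 reads, had no value under the filter of 10 reads. Of all 512 miRNAs, 1 passed the threshold with a pseudocount of 0.5 and 3 with edgeR's quasi-likelihood test, against 0 otherwise, and between 0 and 4 passed with 1 library left out: 4 without control-EVs replicate 2, 3 without HS-EVs replicate 2 and 2 without HS-EVs replicate 1. The cause was not tested.

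With the replicate number as a block, 0 miRNAs passed, and the unadjusted p-value of bta-miR-183 was 0.0332 (adjusted p = 0.739 from limma) against 0.144 without it. An unadjusted p-value of 0.05 or less was found for 30 of the 512 miRNAs with the block and for 25 without it, so that 1 member among them is no result about the members. Deviations of same-numbered libraries correlated by 0.14, 0.14 and 0.08, each highest with its own number, and the labels do not say that numbers mark shared cultures. Within same-numbered pairs, the log2 ratio of miR-182 to miR-183 differed by 0.48 over 2 pairs, that of miR-96 to miR-183 by 0 and that of miR-96 to miR-182 by 0.04 over 1 pair.

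With 1 library left out, the differences of these log2 ratios ranged from -0.18, without control-EVs replicate 2, to 0.48 (miR-182 to miR-183), from -0.21 to 0.21 (miR-96 to miR-183) and from -0.047, without HS-EVs replicate 2, to 0.41 (miR-96 to miR-182). Reads on the members limit every result given here.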
